A study of Mus musculus with 42 samples.

Results

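The DNA replication and S phase genes are 42 named genes whose products license replication origins, start and run the replication fork, supply deoxynucleotides or drive cells from G1 into S phase. They were found by symbol in the 9 deposited tables of gene expression, which together list 20462 genes. The 42 comprised 10 origin licensing genes, 6 helicase activation genes, 6 genes of the sliding clamp and its loader, 8 polymerase and primase genes, 3 genes of the single-strand DNA-binding complex RPA, 2 genes of Okazaki fragment processing, 3 of nucleotide supply, 3 G1/S regulators and the maintenance methylation gene Uhrf1. All 42 had a mean normalized count of at least 10 in each of the 10 comparisons. The study used poly(A) RNA-Seq to ask how the corepressor MTG16 acts in the colonic epithelium of mice at baseline, during repair of colitis and in colitis-associated tumors.

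Mice were C57/BL6, at least 8 weeks old, and came from independent colonies. One colony carried the Mtg16-null allele (Mtg16-/-) and the other a point mutation that replaces a proline of MTG16 with threonine and weakens its binding to E proteins (Mtg16 T/T). Each mutant had littermate-matched WT controls from its own colony. Crypts were freed with EDTA from the 5 cm of colon nearest the cecum (proximal) or the anus (distal). At baseline there were 2 Mtg16-/- and 2 WT proximal libraries, 4 and 4 distal libraries, 2 Mtg16 T/T and 2 WT proximal libraries, and 4 and 3 distal libraries. Distal crypts were also taken from mice given 2% dextran sulfate sodium (DSS), which injures the colonic epithelium, in the drinking water for 5 days and then water for 4 days of repair. These were 4 Mtg16-/- with 3 WT libraries, and 3 Mtg16 T/T with 3 WT libraries. There were 3 Mtg16 T/T and 3 WT libraries of tumors, from mice given the carcinogen azoxymethane at 10 mg/kg and then 3 cycles of 3% DSS for 4 days with 16 days of water. Crypt isolates hold all cells of the crypt and some from outside it, and dissected tumors also hold stroma.

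Before S phase, ORC1, ORC6, CDC6 and CDT1 load the MCM2 to MCM7 ring onto origins. CDC45 and the GINS proteins turn that ring into an active helicase, and PCNA, placed on DNA by the RFC loader, tethers the polymerases behind it. E2F1 and cyclins E1 and E2 (Ccne1, Ccne2) drive the entry into S phase, and many genes of the replication machinery are known E2F targets. In the colon, dividing cells sit in the lower part of the crypt, above and among the stem cells, and the upper crypt holds differentiated cells.

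E2F factors are known to bind TTTCCCGC, TTTGGCGC, TTTCGCGC and TTTGCCGC. RefSeq promoters on GRCm38.p6 were available for 34 of the 42 genes, and these letters were searched on both strands in the 250 bases before each start site. The letters stood in 9 of the 34 genes (26.5%), namely Cdc6, Gins3, Mcm5, Mcm6, Mcm7, Orc1, Pola1, Rfc3 and Uhrf1, and in 2.16% of all 27025 genes with RefSeq promoters, each gene counted once if any of its windows held them. CCAAT stood in 64.7% of the 34 genes against 37.5% of all genes, and GGGCGG in 73.5% against 35.4%. Many of these windows overlap the gene as GENCODE vM21 places it, so that the start sites of the annotations differ. For 14 of the 34 genes a window lay wholly outside the GENCODE gene, and 3 of these 14 held the E2F letters. In the other 6 of the 9 genes (Cdc6, Gins3, Mcm7, Orc1, Rfc3 and Uhrf1) the letters stood in windows that overlap the GENCODE gene. A match is a description of the letters and not a measured site. Windows of the 3 genes in which the letters stood outside the GENCODE gene follow, 2 from the MCM ring and that of Pola1. Each is written from 5′ to 3′ on the strand of the gene, with the E2F letters in capitals. The Mcm5 window is chr8:75109259-75109508 on the plus strand, the Mcm6 window chr1:128359706-128359955 on the minus strand and the Pola1 window chrX:93632156-93632405 on the minus strand. Overlapping matches on opposite strands share a run of capitals in Mcm5 and Mcm6.
Mcm5: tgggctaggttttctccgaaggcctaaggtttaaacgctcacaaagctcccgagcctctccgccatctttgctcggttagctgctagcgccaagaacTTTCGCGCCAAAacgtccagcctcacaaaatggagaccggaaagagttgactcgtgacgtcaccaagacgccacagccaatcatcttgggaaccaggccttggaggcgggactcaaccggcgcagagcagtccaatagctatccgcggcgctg
Mcm6: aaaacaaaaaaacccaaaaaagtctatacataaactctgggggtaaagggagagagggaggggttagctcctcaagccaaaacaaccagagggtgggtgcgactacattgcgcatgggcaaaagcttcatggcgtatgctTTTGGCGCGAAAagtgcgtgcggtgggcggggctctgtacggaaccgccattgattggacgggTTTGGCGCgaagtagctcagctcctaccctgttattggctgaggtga
Pola1: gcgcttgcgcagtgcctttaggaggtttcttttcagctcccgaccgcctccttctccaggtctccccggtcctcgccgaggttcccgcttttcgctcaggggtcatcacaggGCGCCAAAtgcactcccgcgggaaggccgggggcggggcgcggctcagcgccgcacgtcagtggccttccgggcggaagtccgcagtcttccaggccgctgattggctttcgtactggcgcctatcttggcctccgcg

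In WT crypts at baseline, transcript levels of the 42 genes spanned a wide range, and the order was similar in both segments. Levels between genes are given as normalized counts per kb of each gene's longest transcript, by protein-coding transcripts first. Pcna was highest, at 3167 ± 618 per kb in distal crypts (SD, n = 7) and 3711 ± 188 in proximal crypts (SD, n = 4). In distal crypts Rpa3, the smallest RPA subunit, followed at 1542 ± 284, Mcm7 at 908 ± 155 and Pold2, an accessory subunit of polymerase delta, at 894 ± 103. The ranges of Mcm7 and Pold2 over the 7 libraries overlapped, from 711 to 1122 and from 745 to 1032 per kb. Gins3 was lowest in both segments, at 59.1 ± 14.0 and 70.0 ± 9.5 per kb, next to Cdc6 at 61.6 ± 10.7 and 81.1 ± 19.1. Within the MCM ring, the distal mean level per kb ran from 396 for Mcm4 to 908 for Mcm7. Of the licensing factors that load the ring, Cdt1 was at 413, near Mcm4, and their ranges overlapped (322 to 467 and 267 to 465). In proximal crypts Cdt1 was at 491 and Mcm4 at 498. Orc6 at 309, Orc1 at 107 and Cdc6 at 61.6 per kb were below all 6 ring genes in distal crypts.

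**Figure D1:**
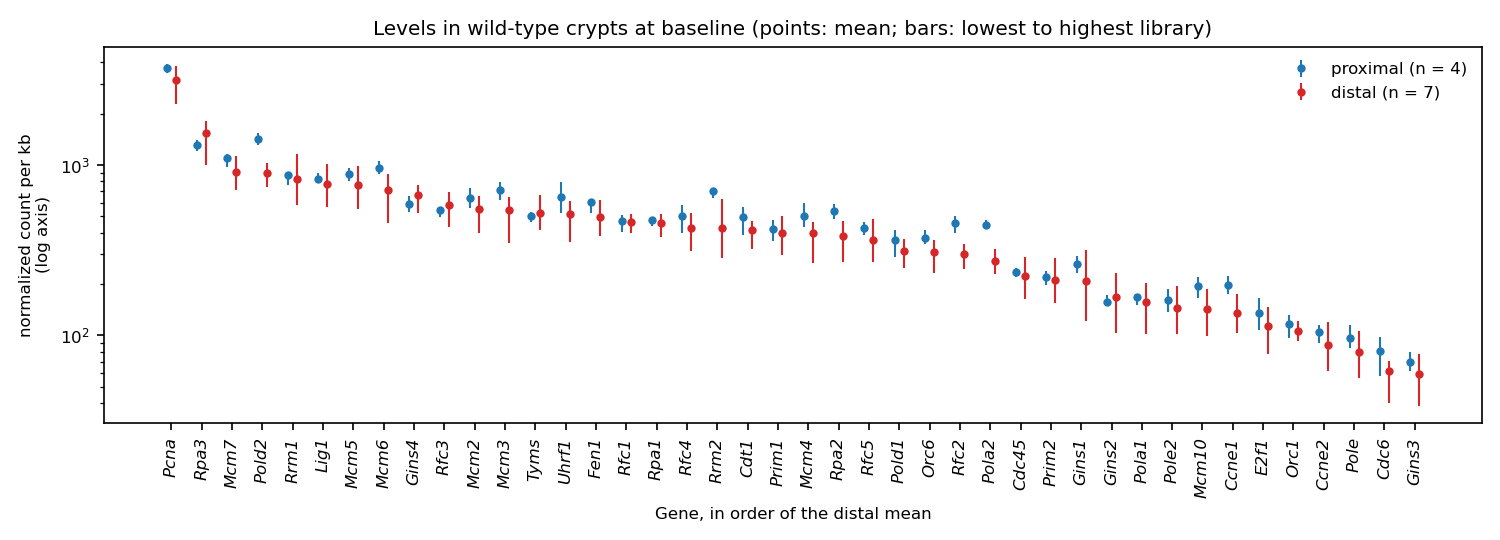
Normalized counts per kb of transcript (log axis) of the 42 genes in WT crypts at baseline. Proximal (n = 4) and distal (n = 7) crypts are in separate colors. Points are means over libraries, and bars run from the lowest to the highest library. Pcna lies highest in both segments and Gins3 lowest, at distal means of 3167 and 59.1 per kb.

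Sequencing was deep. Whole reads could be recovered for 38 of the 42 libraries, which held 32231389 to 74661922 reads assigned to genes (median 46659625). Over the libraries of any comparison, the lowest mean of any of the 42 genes was 151 normalized counts. The gene for MTG16, Cbfa2t3, was lower in Mtg16-/- than in WT crypts after DSS (427 to 595 against 1845 to 2519 normalized counts; limma adjusted p = 0.00292), while at baseline the distal ranges of 424 to 1095 and 1027 to 1809 overlapped (adjusted p = 0.303). Markers of epithelium were abundant in every library. Smooth muscle markers stood high in 3 crypt libraries, Mtg16-/- proximal replicate 1, Mtg16 T/T proximal replicate 2 and Mtg16 T/T distal replicate 4, at mean log2 levels of 9.09, 7.72 and 8.09, against 2.32 to 5.10 in all other crypt libraries. The labels also give each library a code that starts with a number, whose meaning is not given in the sources used here. Every DSS group had another code number than its baseline group, so that DSS and whatever this number marks cannot be told apart.

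Between proximal and distal WT crypts at baseline, the replication genes were called lower about as often as genes in general. Of the 42 genes, 9 were lower in distal crypts and 0 were higher at a limma adjusted p under 0.05, beside 22.0% of all 13841 genes tested that were lower and 20.1% that were higher. The median log2 fold change was −0.26 over the 42 genes and 0.00 over all genes, and 37 of the 42 had a lower mean distally. In bulk RNA, fewer cells of a type and less RNA per cell cannot be told apart. Each table was tested on log2(normalized count + 1), and fold changes are on that scale.

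The largest distal decrease was in Rrm2, which encodes the regulatory subunit of ribonucleotide reductase. It was at 1584, 1572, 1409 and 1567 normalized counts in the 4 proximal libraries and at 620 to 1378 (median 945) in the 7 distal libraries, a log2 fold change of −0.76 ± 0.17 (SE; limma adjusted p = 0.00226). The groups did not overlap, and the distal libraries were spread more widely than the proximal ones. Pola2, the B subunit of polymerase alpha, was at 1153, 1077, 1026 and 1055 proximally and at 553 to 775 (median 651) distally (log2 fold change −0.72 ± 0.10, adjusted p = 5.35e-05). Pold2 was at 2340, 2527, 2149 and 2278 proximally and 1227 to 1698 (median 1475) distally (−0.67 ± 0.09, adjusted p = 4.32e-05). Both genes encode non-catalytic polymerase subunits, and neither showed overlap between segments. Rfc2, a clamp loader subunit, was at 2502, 2392, 2179 and 2001 proximally and 1228 to 1704 (median 1550) distally (−0.60 ± 0.10, adjusted p = 0.000193). Ccne1 was at 351, 409, 368 and 444 against 207 to 350 (median 264) (−0.56 ± 0.14, adjusted p = 0.00553). Rpa2 was at 1012, 867, 961 and 1066 against 487 to 850 (median 753) (−0.52 ± 0.14, adjusted p = 0.00974). Thus 6 of the 42 genes had every distal library below every proximal library, a pattern that 15.9% of all genes tested showed.

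The other 3 genes that passed the test overlapped between segments. Mcm10, a helicase activation factor, was at 1065, 803, 888 and 1044 proximally and 479 to 915 (median 693) distally (log2 fold change −0.47 ± 0.16, adjusted p = 0.0285). Mcm6 was at 4326, 3830, 3868 and 4577 against 1982 to 3840 (median 3240) (−0.45 ± 0.15, adjusted p = 0.0299). Mcm3 was at 2392, 1884, 1979 and 2361 against 1060 to 1954 (median 1729) (−0.41 ± 0.14, adjusted p = 0.0358). All 10 origin licensing genes and all 8 polymerase and primase genes had lower distal means, and 2 of each group passed the test. Mcm2 (−0.21, adjusted p = 0.209), Pcna (−0.25, adjusted p = 0.15) and E2f1 (−0.26, adjusted p = 0.254) did not. Rpa3 had the largest positive value, with 908, 849, 939 and 809 proximally and 669 to 1217 (median 1114) distally (0.22 ± 0.14, adjusted p = 0.245).

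**Figure D2:**
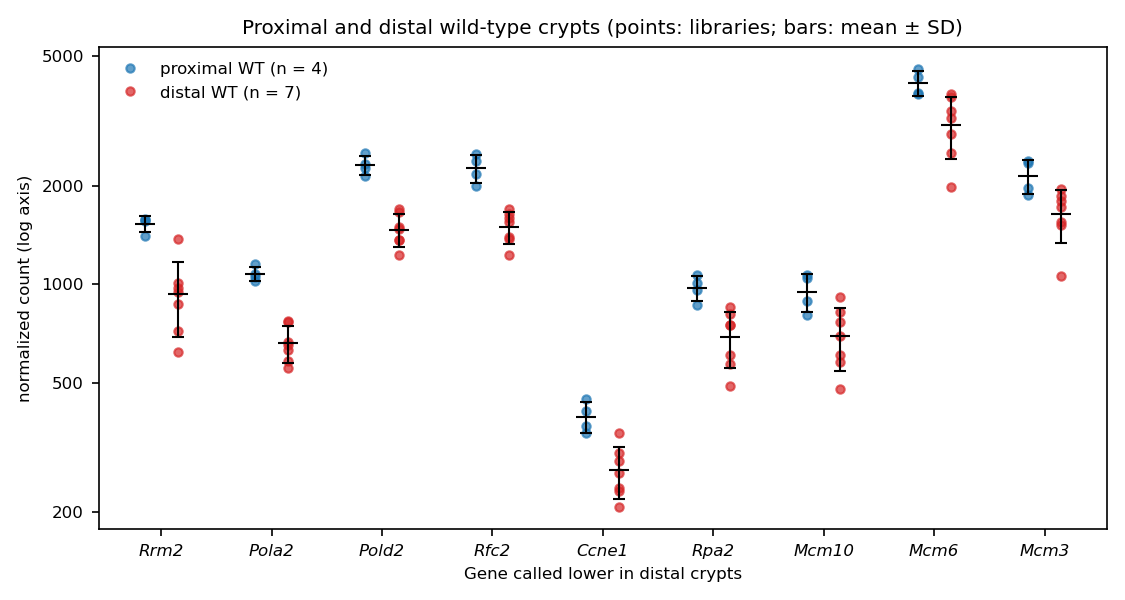
Normalized counts of the 9 replication genes that were lower in distal than in proximal WT crypts, with each library as a point and bars for the mean ± SD (proximal n = 4, distal n = 7). Rrm2 runs from 1409 to 1584 proximally and from 620 to 1378 distally.

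The code number moved with segment in part, since proximal libraries carried 4149 or 5582, and distal libraries 4149 or 5094. Within code 4149, which covers 2 proximal and 2 distal libraries, the calls were Rfc2 (−0.78), Pola2 (−0.74), Pold2 (−0.69) and Rrm2 (−0.91), and with the code number as a covariate Ccne1 (−0.69) was added to these. Of all genes 7.69% were called lower within code 4149 and 11.5% with the covariate. Mcm3, Mcm6, Mcm10 and Rpa2 did not pass in either. Lymphocyte and plasma cell markers were also lower distally, with mean log2 levels of 5.07 to 7.05 against 7.15 to 7.91, summed normalized counts of 653 to 2164 against 2731 to 4448 and 5 of 7 markers passing the test. None of these 7 markers was at 0 in all libraries of a segment. Markers of epithelial cell types separated the segments without overlap as well. Absorptive colonocyte markers had mean log2 levels of 13.19 to 13.89 distally against 14.34 to 14.72 proximally, with 4 of 7 markers lower and 3 higher. Stem cell markers were at 10.76 to 10.98 against 10.44 to 10.69, with 3 of 8 higher, and goblet cell markers at 15.29 to 16.20 against 14.96 to 15.24, with 4 of 5 higher and 1 lower. The part of these cell types in the segment difference was not tested. One distal library, replicate 1 of the WT littermates of Mtg16-/- mice, was the lowest of all 11 libraries for 28 of the 42 genes (9.19% of all genes), and 9 of the 42 again passed the test without it. Leaving out each library in turn gave 6 to 11 of the 42 genes called lower, beside 19.0% to 22.5% of all genes, with 6 without proximal WT replicate 2 of the T/T colony, proximal replicate 1 of the WT littermates of Mtg16-/- mice or distal replicate 2 of the latter.

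In further lists of S phase genes the called shares lay below those of all genes given above. Of 26 further replication fork and origin genes 4 were lower distally, of 12 chromatin and nucleotide genes of S phase 2 were lower, and of 26 G1/S control and checkpoint genes 5 were lower and 1 was higher. Cdc7, the kinase that fires licensed origins with its partner DBF4, had mean normalized counts of 189 distally and 458 proximally (log2 fold change −1.29, adjusted p = 0.000233). Cdk6, a cyclin D partner, was at 969 and 2134 (−1.14, adjusted p = 3.13e-07). Among 22 mitosis genes 0 passed the test in limma, 0 had an unadjusted p under 0.05, and the median was 0.02.

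After DSS, distal WT crypts of the T/T colony had replication genes that rose and others that fell. Of the 42 genes 7 rose, beside 14.0% of all 13566 genes tested, and 5 fell, beside 21.6%, so that the first share was near and the second below that of genes in general. The genes that rose encode parts of origin licensing and its control (Cdc6, Mcm2, Mcm3, Cdt1), cyclin E1, the flap nuclease FEN1 and UHRF1. Those that fell encode both catalytic subunits of the polymerase alpha and primase complex (Pola1, Prim1), the large clamp loader subunit RFC1, cyclin E2 and GINS1. The median over the 42 genes was 0.06 on the log2 scale, and 22 had a positive value.

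Pola1 moved most. It was at 1182, 1022 and 997 normalized counts in the 3 baseline libraries and at 64.9, 46.5 and 211 in the 3 DSS libraries (log2 fold change −3.61 ± 0.53, SE; limma adjusted p = 0.00947). Rfc1 went from 2517, 2380 and 2423 to 544, 523 and 1469 (−1.70 ± 0.39, adjusted p = 0.0222). In both genes DSS replicate 3 lay nearest the baseline libraries. Ccne2 was at 367, 312 and 229 at baseline and 74.0, 68.2 and 163 after DSS (−1.65 ± 0.38, adjusted p = 0.0222). Prim1 was at 787, 762 and 710 and then at 295, 379 and 505 (−0.97 ± 0.22, adjusted p = 0.0211), and Gins1 at 375, 281 and 297 and then at 190, 193 and 224 (−0.64 ± 0.19, adjusted p = 0.0393). No value of these 5 genes after DSS reached its baseline range.

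The genes that rose had log2 fold changes of 0.58 to 0.88. Cdc6 went from 352, 335 and 281 to 496, 677 and 611 (log2 fold change 0.88 ± 0.18, adjusted p = 0.0179), and Ccne1 from 382, 309 and 324 to 519, 700 and 529 (0.77 ± 0.19, adjusted p = 0.0238). Mcm3 went from 2132, 2007 and 1924 to 3177, 4426 and 2710 (0.74 ± 0.19, adjusted p = 0.0287), and Mcm2 from 2428, 2130 and 2133 to 3639, 4434 and 3128 (0.73 ± 0.16, adjusted p = 0.0185). DSS replicate 2 was the highest of the 6 libraries in all 7 of the genes that rose. Fen1 (0.60, adjusted p = 0.0408), Cdt1 (0.59, adjusted p = 0.0275) and Uhrf1 (0.58, adjusted p = 0.0268) had the smallest rises that passed. E2f1 did not pass, at 441, 334 and 386 and then 453, 658 and 452 (0.41 ± 0.21, adjusted p = 0.158), nor did Pcna, at 6269, 6018 and 5493 and then 5056, 5594 and 5305 (−0.16 ± 0.10, adjusted p = 0.263). DSS and baseline libraries did not overlap for 10 genes that were higher and 9 that were lower, beside 26.0% and 29.3% of all genes.

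**Figure D3:**
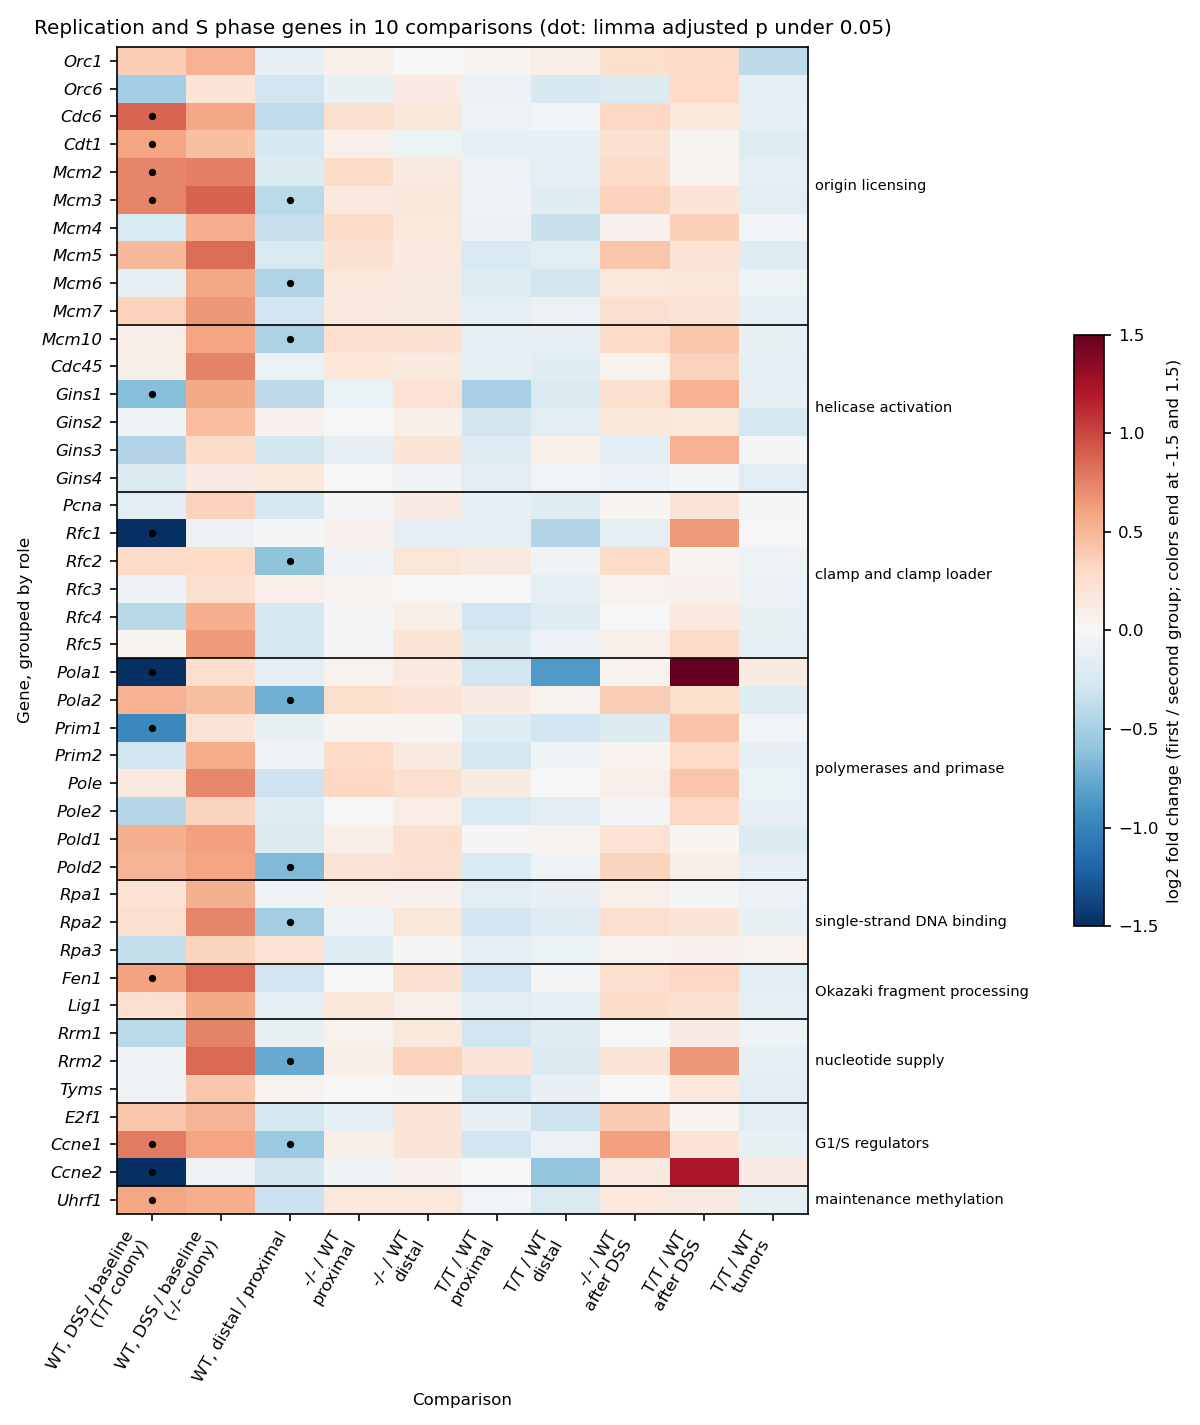
Log2 fold change of each of the 42 genes (rows) in the 10 comparisons (columns), as a color scale, with a dot where the limma adjusted p is under 0.05. Dots stand only in the DSS column of the T/T colony, with 12, and in the segment column, with 9.

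The direction of these changes followed the GC content of the transcripts. Across the 42 genes the Spearman correlation of the log2 fold change with transcript GC content was 0.83, and across all 13566 genes it was 0.71. These are descriptions across genes of the same libraries, and genes are not independent replicates. The 14 genes of lowest GC content, up to 46.9%, had a median of −0.42 with 1 positive value, and the 14 of highest GC content, from 51.9%, had a median of 0.53 with 13 positive values. An index of GC content, the log2 level of the 20% of all genes lowest in GC minus that of the 20% highest in GC, centered on the mean of the 6 libraries, was 1.03, 1.04 and 0.95 in the baseline libraries and −1.28, −1.64 and −0.10 in the DSS libraries. DSS replicate 3 was thus nearer to baseline in this index, as it was for Pola1 and Rfc1. Whether the index comes from the libraries or from the crypts was not tested.

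The middle 150 coding bases of 4 genes, from GENCODE vM21 transcripts on mm10, show how far the composition of these genes differs. G and C are in capitals. Pola1 (bases 2122 to 2271 of the coding sequence, 34.7% GC) and Ccne2 (bases 532 to 681, 37.3%) fell after DSS, and Mcm2 (bases 1282 to 1431, 50.7%) and Cdt1 (bases 760 to 909, 60.7%) rose. Pola1 lies at chrX:93304767-93632155 and Mcm2 at chr6:88883474-88898780, both on the minus strand, and Ccne2 at chr4:11191351-11204779 and Cdt1 at chr8:122568015-122573554, both on the plus strand.
Pola1: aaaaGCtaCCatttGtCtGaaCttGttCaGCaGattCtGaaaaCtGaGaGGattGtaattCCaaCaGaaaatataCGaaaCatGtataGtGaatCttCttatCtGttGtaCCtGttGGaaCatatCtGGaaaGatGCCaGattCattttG
Ccne2: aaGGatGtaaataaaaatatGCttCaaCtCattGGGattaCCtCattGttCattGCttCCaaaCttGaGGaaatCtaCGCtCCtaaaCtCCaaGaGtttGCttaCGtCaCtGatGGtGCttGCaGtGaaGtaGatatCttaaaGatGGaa
Mcm2: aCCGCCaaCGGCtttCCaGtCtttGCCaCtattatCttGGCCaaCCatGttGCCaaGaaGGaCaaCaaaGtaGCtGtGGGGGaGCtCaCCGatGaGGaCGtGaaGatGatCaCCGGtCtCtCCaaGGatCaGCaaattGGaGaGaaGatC
Cdt1: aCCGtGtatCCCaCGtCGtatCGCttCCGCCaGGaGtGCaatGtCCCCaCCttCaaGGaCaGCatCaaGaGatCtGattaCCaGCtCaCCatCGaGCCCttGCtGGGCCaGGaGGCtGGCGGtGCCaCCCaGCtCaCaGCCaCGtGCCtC

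When each library's trend with GC content was removed before the fit, an alternative added after the data were seen, 6 of the 42 genes were higher and 2 lower, beside 13.1% and 8.42% of all genes. Pola1 (−1.97, adjusted p = 0.00635) and Rfc1 (−1.08, adjusted p = 0.0234) stayed lower. Ccne2 turned to 0.90 (adjusted p = 0.0285) and Prim1 to 0.11 (adjusted p = 0.681), while Gins1 lost its call at −0.10. Cdc6 (0.99, adjusted p = 0.0127), Ccne1 (0.56, adjusted p = 0.048) and Mcm2 (0.42, adjusted p = 0.0414) stayed higher, and Orc1 (0.94) and Mcm4 (0.60) passed in addition. The other 4 of the 7 genes that had risen lost their calls, Mcm3 at 0.54 (adjusted p = 0.0511), Fen1 at 0.33 (adjusted p = 0.158), Uhrf1 at 0.32 (adjusted p = 0.0989) and Cdt1 at 0.23 (adjusted p = 0.159). Pcna turned from −0.16 to 0.70 (adjusted p = 0.0557), and to 0.60 (adjusted p = 0.0371) when the trend with transcript length was removed too. With the trend removed, 35 of the 42 genes had a positive value and the median was 0.28, beside 0.05 over all genes.

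**Figure D4:**
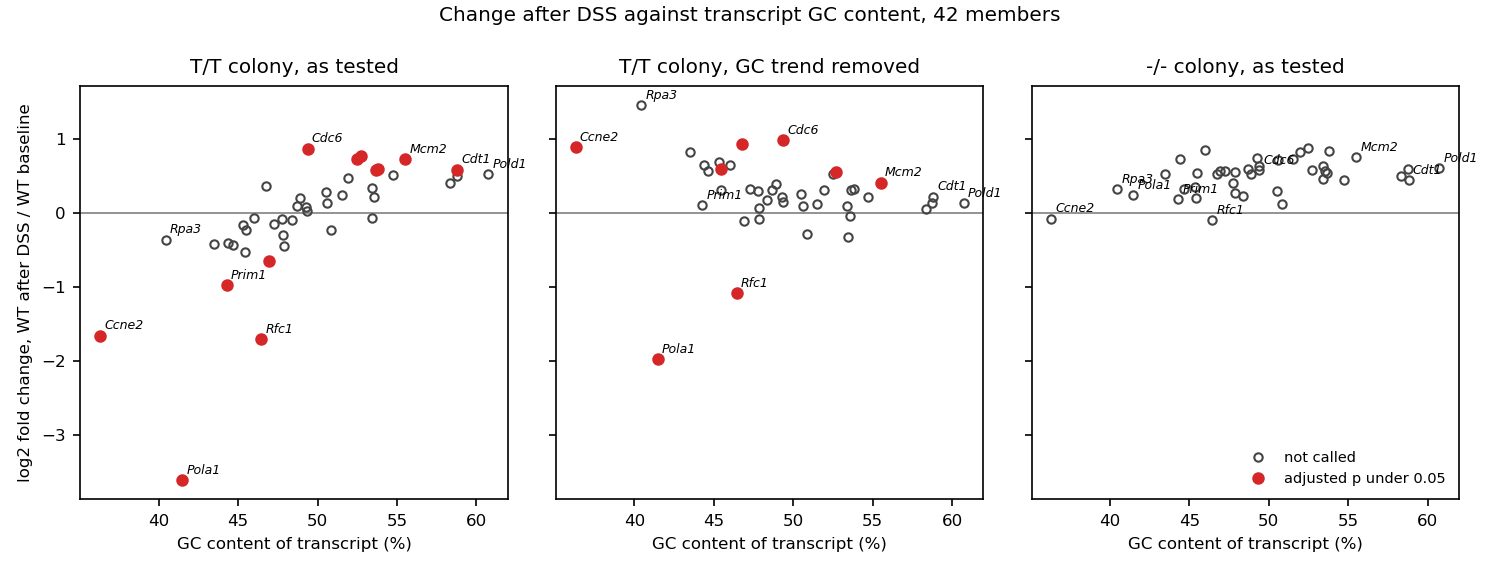
Log2 fold change after DSS against transcript GC content (%), 1 point per gene, for the T/T colony as tested, the T/T colony with the GC trend removed, and the colony of Mtg16-/- mice as tested. Pola1 lies lowest in the first 2 panels, at −3.61 and −1.97, and at 0.25 in the last.

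DSS replicate 3 of the T/T colony bore on the counts. Without it 15 of the 42 genes were higher and 10 lower, beside 32.2% and 34.7% of all genes in that fit. Without any 1 of the 3 baseline libraries or of DSS replicates 1 and 2 at most 1 of the 42 passed in either direction, beside 0.00739% to 4.34% of all genes that were higher and 0 to 9.04% that were lower. Marker genes moved in the same comparison. Stem cell markers had mean log2 levels of 11.08 to 11.14 after DSS against 10.85 to 11.05 at baseline, with 2 of 8 rising. Of 5 goblet cell markers 4 rose, and their mean log2 level was 16.41 to 16.46 after DSS against 15.40 to 15.58 at baseline. Myeloid markers were at 5.72 to 7.08 against 5.49 to 5.71, fibroblast markers at 3.37 to 4.36 against 2.59 to 3.74, and lymphocyte and plasma cell markers at 4.95 to 5.75 against 5.46 to 6.91. In normalized counts, the summed level of the 7 myeloid markers was 591 to 1318 after DSS against 482 to 598, of the 6 fibroblast markers 147 to 356 against 43.7 to 113, and of the 7 lymphocyte and plasma cell markers 412 to 631 against 1031 to 2174. The part of these markers in the changes of the replication genes was not tested.

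Many mitosis genes fell in this comparison. Of 22 mitosis genes 14 fell and 0 rose, all 22 had a negative value and the median was −1.82. Cenpf, a kinetochore protein, had mean normalized counts of 89.9 after DSS and 3390 at baseline (log2 fold change −5.23, adjusted p = 0.00693), and Cenpe, a kinetochore motor, 79.7 and 2779 (−5.11, adjusted p = 0.00693). With the GC trend removed these values were −3.94 and −3.75, 11 of the 22 mitosis genes passed and all 22 remained negative. Of 26 further replication fork and origin genes 11 fell and 0 rose, with a median of −0.52. Of 12 chromatin and nucleotide genes of S phase 1 rose and 4 fell, and of 26 G1/S control and checkpoint genes 3 rose and 6 fell. The mean log2 level of the 42 genes was 9.82, 10.15 and 9.97 after DSS and 10.20, 10.02 and 9.93 at baseline. That of the mitosis genes was 8.82, 9.23 and 9.65 against 11.82, 11.38 and 10.84, so that the groups overlapped for the 42 genes and not for the mitosis genes.

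The same contrast in WT mice of the other colony, the littermates of Mtg16-/- mice, was made by scaling recovered reads of its DSS and baseline libraries together. Values of the replication genes leaned upward here and 0 of 42 passed the test in limma, beside 3.70% of 14026 genes called higher and 1.23% called lower. An unadjusted p under 0.05 was reached by 21 of the 42, all higher, beside 11.3% of all genes. Of the 42, 40 had a positive value, and the median was 0.55, beside −0.00 over all genes. The smallest adjusted p was 0.0629, for Fen1 (0.84). In edgeR 1 of the 42 was higher (Fen1), beside 3.79% of all genes, and in DESeq2 11 were, beside 5.83%.

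Mcm3 had the highest value, at 1208, 1754, 1988 and 1775 normalized counts at baseline and 4542, 3653 and 1737 after DSS (log2 fold change 0.89 ± 0.30, limma adjusted p = 0.126). Rrm2 was at 706, 1003, 1121 and 819 and then at 1868, 2098 and 1087 (0.85 ± 0.24, adjusted p = 0.0797). Mcm2 was at 1537, 1896, 2375 and 2065 and then at 5031, 3519 and 2007 (0.76 ± 0.27, adjusted p = 0.151). In each of these genes 2 DSS libraries lay above all baseline libraries and DSS replicate 3 lay among them. The values were 0.59 for Ccne1 (adjusted p = 0.338), 0.51 for E2f1 (adjusted p = 0.339) and 0.35 for Pcna (adjusted p = 0.33). Rfc1 was at 2182, 2196, 2811 and 2624 and then at 1759, 3048 and 2260 (−0.09 ± 0.19), and Ccne2 at 212, 247, 412 and 283 and then at 255, 561 and 131 (−0.07 ± 0.42). These were the only 2 of the 42 with a negative value. Orc1, Prim2, Rpa1, Fen1 and Lig1 were higher with no overlap between groups, as were 11.2% of all genes.

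The mean log2 level of the 42 genes was 10.58, 10.49 and 9.89 after DSS and 9.56, 9.85, 10.15 and 9.71 at baseline, a difference of 0.50 with overlap. Without DSS replicate 3 it was 0.71 and 10 of the 42 genes were higher, beside 3.34% of all genes in that fit. Against the baseline libraries of code 4149 alone the difference was 0.39, and against those of code 5094 alone 0.61. Mitosis genes had mean levels of 11.24 to 11.58 against 10.32 to 11.37, with 0 of 22 passing in limma, 8 at an unadjusted p under 0.05 and 2 passing in DESeq2. E2f8, an E2F family repressor, was the 1 gene of the G1/S control list that passed, with means of 1604 and 966 (0.72, adjusted p = 0.0499). Myeloid markers were at mean log2 levels of 6.43 to 8.22 against 4.87 to 5.51 (summed normalized counts of 867 to 3281 against 315 to 437), and fibroblast markers at 4.73 to 4.85 against 2.09 to 4.77 (summed 366 to 451 against 32.1 to 218). Stem cell markers were also higher without overlap, with summed normalized counts of 31639 to 36037 against 28199 to 31102, and 0 of 8 passed the test in limma. The part of these markers in the values of the replication genes was not tested.

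The difference between the colonies in this response was tested for each gene, also as an addition after the data were seen. Of the 42 genes 7 differed, no larger a share than the 20.2% of all genes that did, each with the higher value in the colony of Mtg16-/- mice. They were Pola1 (a difference of 3.86 in log2 fold change, adjusted p = 0.000526), Rfc1 (1.62, adjusted p = 0.0162), Gins1 (1.21, adjusted p = 0.0156), Prim1 (1.16, adjusted p = 0.014), Rrm1 (1.14, adjusted p = 0.00876), Rfc4 (0.95, adjusted p = 0.0289) and Prim2 (0.85, adjusted p = 0.0271). With the GC trend removed Pola1 (2.36) and Rfc1 (0.97) passed, beside 17.3% of all genes. The GC index of the libraries in the colony of Mtg16-/- mice was −0.91 to 0.27 after DSS and 0.06 to 0.30 at baseline.

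The genotypes were then compared at baseline within each segment. In Mtg16-/- against WT crypts 0 of the 42 genes passed in limma in either segment, and 0 had an unadjusted p under 0.05, which 2.76% of all genes reached higher and 3.20% lower proximally, and 3.31% and 1.32% distally. At an adjusted p under 0.05, 0.0359% of all genes tested were higher and 0.0287% lower proximally, and 0.239% and 0 distally, so these comparisons called few genes of any kind. In distal crypts edgeR and DESeq2 also called 0 of the 42, beside 0.210% and 1.25% of all genes higher and 0 and 0.213% lower. Reads could not be recovered for the tables of proximal genotypes, so no count model was run on them.

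In proximal crypts the largest values were those of Pole, the catalytic subunit of polymerase epsilon, at 1077 and 826 in Mtg16-/- and 892 and 643 in WT (log2 fold change 0.32 ± 0.22), and of Prim2, the large primase subunit, at 644 and 434 against 453 and 416 (0.29 ± 0.23). The lowest was Rpa3, at 924 and 731 against 979 and 905 (−0.20 ± 0.17). Pcna (−0.03), Mcm2 (0.27), Ccne1 (0.10) and E2f1 (−0.15) lay within that range. With 2 libraries a group, an exact permutation test of a single gene cannot go below p = 0.3333. Of the 42, 28 had a positive value and 6 were higher without overlap, as were 17.5% of all genes. The mean difference was 0.07, and it turned to −0.04 without Mtg16-/- replicate 1, whose smooth muscle markers stood high, or without WT replicate 2, and was 0.19 without either other library.

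In distal crypts 38 of the 42 were positive with a median of 0.14. Rrm2 was at 1009, 1036, 1445 and 727 in Mtg16-/- and 635, 893, 1003 and 735 in WT (0.35 ± 0.22, adjusted p = 1), and Pold1, the catalytic subunit of polymerase delta, at 1307, 1185, 1303 and 1091 against 882, 1051, 1303 and 906 (0.25 ± 0.14). Cdt1 was at 823, 841, 910 and 760 against 721, 871, 937 and 1003 (−0.07 ± 0.12), and Rfc1 had the lowest value (−0.12 ± 0.12). Pcna (0.13), Mcm2 (0.14), Ccne1 (0.19) and E2f1 (0.20) had intervals that included 0, from −0.38 to 0.64 for Pcna and from −0.30 to 0.57 for Mcm2. Mtg16-/- replicate 3 was the highest of the 8 libraries for 35 of the 42 genes, against 17.0% of all genes. The mean difference over the 42 genes was 0.13 with all 8 libraries and −0.02 without this one, so that its direction rests on Mtg16-/- replicate 3. It was 0.05 without WT replicate 1, and 0.24 or 0.25 without WT replicate 3 or Mtg16-/- replicate 4. Within code 4149 it was 0.06 and within code 5094 0.20. Enteroendocrine markers separated the genotypes, at mean log2 levels of 11.66 to 11.91 in Mtg16-/- against 10.24 to 10.50 in WT with 4 of 6 higher, and in proximal crypts they were at 11.18 to 11.68 against 10.60 to 10.91 with 0 of 6 passing. Their part in these values was not tested.

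In Mtg16 T/T crypts at baseline the values leaned the other way, again with 0 of 42 passing in limma in either segment. Of all genes 0.138% were higher and 0.0944% lower proximally, and 0.0369% and 0 distally. Proximally 3 genes had an unadjusted p under 0.05, all lower, beside 5.30% of all genes. Gins1 was at 233 and 194 in T/T and 307 and 292 in WT (−0.49 ± 0.17, adjusted p = 0.36), and the others were Rrm1 (−0.30) and Rpa2 (−0.29). Rfc4 was at 568 and 470 against 637 and 639 (−0.30 ± 0.14), Rrm2 at 1701 and 1608 against 1370 and 1507 (0.20 ± 0.10) and Rfc2 at 2282 and 2151 against 2118 and 1925 (0.13 ± 0.10). Pcna (−0.12), Mcm2 (−0.08), Ccne1 (−0.29) and E2f1 (−0.12) did not pass. No overlap was seen for 21 genes that were lower and 4 that were higher, beside 22.9% and 22.6% of all genes, and the median was −0.15. The mean log2 level of the 42 genes was 9.90 and 9.77 in T/T and 9.93 and 10.01 in WT, and the difference of −0.14 was −0.08 without T/T replicate 2, the lowest library, and −0.21 without T/T replicate 1. In T/T replicate 2 the smooth muscle markers were at 7.72, against 2.58 to 3.00 in the other 3 libraries, lymphocyte and plasma cell markers at 6.97 against 7.73 to 7.82 and mitosis genes at 10.28 against 10.92 to 11.16. Fibroblast markers were at 5.73 in that library against 2.58 to 2.90, and endothelial markers at 5.14 against 3.36 to 3.95. In both T/T libraries enteroendocrine markers stood above WT (10.97 to 11.29 against 10.32 to 10.68), as did absorptive colonocyte markers (14.61 to 14.75 against 14.41 to 14.43). The part of these markers in the lower levels was not tested.

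Distally 4 of the 42 were positive with a median of −0.14, and Mcm4 (−0.33) had an unadjusted p under 0.05, as had 1.65% of all genes in that direction. For the 42 genes edgeR and DESeq2 called 0 as well, beside 0.0369% and 0.311% of all genes higher and 0 and 0.0815% lower. Pola1 had the lowest value, at 193, 1070, 768 and 435 in T/T and 1018, 890 and 863 in WT (−0.84 ± 0.53, adjusted p = 0.863). Ccne2 was at 82.1, 265, 184 and 210 against 316, 272 and 198 (−0.59 ± 0.39), and Orc1 (0.08) and Gins3 (0.08) had the highest values. Pcna (−0.18), Mcm2 (−0.13), Ccne1 (−0.09) and E2f1 (−0.31) did not pass. T/T replicate 1, the lowest for Pola1 and Ccne2, had a GC index of −1.02. T/T replicate 4, whose smooth muscle markers stood high, was the lowest library for 33 of the 42 genes, against 13.8% of all genes. The mean difference over the 42 genes was −0.16 with all 7 libraries, −0.05 without T/T replicate 4, −0.09 without WT replicate 1 and −0.27 without T/T replicate 2. Enteroendocrine markers were at mean log2 levels of 10.54 to 11.16 in T/T against 10.21 to 10.47 in WT with 0 of 6 passing, and their part in these values was not tested.

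**Figure D5:**
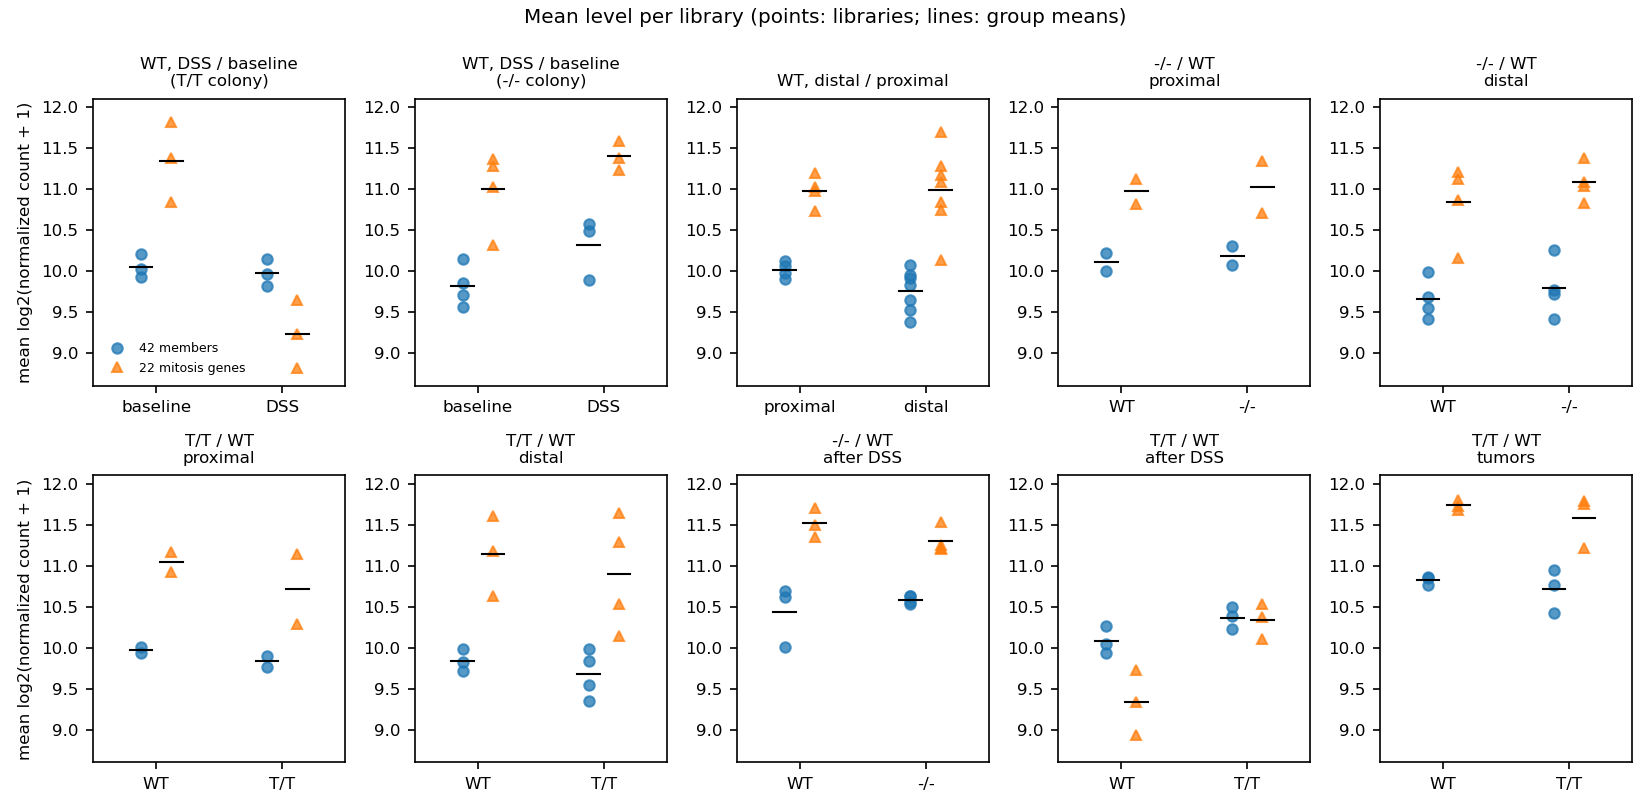
Mean log2(normalized count + 1) per library of the 42 replication genes (circles) and of 22 mitosis genes (triangles), 1 panel per comparison, with each library as a point. In the DSS panel of the T/T colony the mitosis genes lie at 8.82 to 9.65 after DSS and 10.84 to 11.82 at baseline, and the replication genes at 9.82 to 10.15 and 9.93 to 10.20.

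After DSS, no difference of the 42 genes between Mtg16-/- and WT distal crypts passed the test. In limma 0 passed in either direction, beside 0.380% of 14476 genes called higher and 0.249% called lower, and 0 had an unadjusted p under 0.05, beside 7.94% higher and 4.46% lower. The count models edgeR and DESeq2 also called 0 of the 42. Of all genes edgeR called 0.332% higher and 0.269% lower, and DESeq2 3.37% and 1.66%. The numbers of the replicates paired these libraries (correlations of 0.317 to 0.554). With the pairs as a block 0 of the 42 passed, beside 5.72% of all genes higher and 3.06% lower. Ccne1 had the highest value, at 711, 630, 724 and 625 in Mtg16-/- and 722, 526 and 222 in WT (0.61 ± 0.34, adjusted p = 0.539). Mcm5 was at 9174, 5396, 5409 and 7501 against 8366, 5037 and 3032 (0.41 ± 0.32). In both genes WT replicate 3 was the low library. Orc6 was at 415, 699, 557 and 429 against 591, 707 and 503 (−0.21 ± 0.23) and Prim1 at 562, 925, 723 and 600 against 730, 956 and 720 (−0.21 ± 0.21). Pcna (0.03), Mcm2 (0.28) and E2f1 (0.39) did not pass.

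WT replicate 3 was the lowest of the 7 libraries for 36 of the 42 genes, against 16.0% of all genes. The mean log2 level of the 42 was 10.53 to 10.64 in Mtg16-/- and 10.69, 10.62 and 10.01 in WT, so the 2 other WT libraries lay within or above the Mtg16-/- range. Without replicate 3 of WT the mean difference was −0.07. Myeloid markers were at mean log2 levels of 9.10 to 10.66 in Mtg16-/- and 6.55 to 8.34 in WT (summed normalized counts of 6128 to 19612 against 945 to 3559). Enteroendocrine markers were at 11.06 to 11.32 against 10.37 to 10.82 and stem cell markers at 11.11 to 11.26 against 11.29 to 11.48. The part of these markers in the values of the replication genes was not tested.

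In Mtg16 T/T crypts after DSS 40 of the 42 genes had a positive value, with a median of 0.20, and 0 passed in limma, edgeR or DESeq2. Limma called 0 of 13648 genes here, with 3.75% higher and 5.02% lower at an unadjusted p under 0.05, edgeR also called 0 genes and DESeq2 156 higher and 178 lower. The WT libraries are those of the DSS contrast above. Ccne2 was at 234, 401 and 142 in T/T and 80.5, 73.6 and 172 in WT (1.23 ± 0.50, adjusted p = 0.556), and Pola1 at 217, 854 and 139 against 70.6, 50.2 and 223 (1.66 ± 0.81, adjusted p = 0.656). In both genes the groups overlapped, since WT replicate 3 lay above T/T replicate 3 and, for Pola1, above T/T replicate 1 as well. Rrm2 (0.65, adjusted p = 0.518) was, with Ccne2, 1 of 2 genes at an unadjusted p under 0.05. Gins4 was at 1022, 828 and 1096 against 1016, 1273 and 770 (−0.03 ± 0.25) and Rpa1 at 3669, 2820 and 3697 against 3319, 4201 and 2929 (−0.03 ± 0.21). Pcna (0.20), Mcm2 (0.05), Ccne1 (0.19) and E2f1 (0.03) did not pass.

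Only Gins1 and Prim2 were higher in T/T without overlap, beside 5.66% of all genes. The GC index was 0.49, 1.31 and −0.71 in T/T and −0.64, −0.99 and 0.54 in WT, and with its trend removed Ccne2 was at 0.20 and Pola1 at 1.01, neither of which passed. The mean log2 level of the 42 genes was 10.49, 10.22 and 10.38 in T/T and 9.94, 10.26 and 10.04 in WT. That of the mitosis genes was 10.37, 10.53 and 10.10 against 8.94, 9.34 and 9.73. Of the 22 mitosis genes 0 passed in limma and edgeR and 1 in DESeq2, 9 had an unadjusted p under 0.05 in limma and the median was 0.89, or 0.60 with the GC trend removed. Lymphocyte and plasma cell markers were at mean log2 levels of 6.35 to 6.57 against 5.07 to 5.82, myeloid markers at 7.52 to 7.79 against 5.82 to 7.19, and goblet cell markers at 15.84 to 15.92 against 16.50 to 16.58. The part of these markers in the result was not tested.

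In tumors the level of the 42 genes overlapped between genotypes. In limma 0 of the 42 passed and 0 had an unadjusted p under 0.05, and edgeR and DESeq2 called 0 as well. Of all 15900 genes limma and edgeR called 0, DESeq2 called 11 higher and 13 lower, and 1.48% were higher and 0.981% lower at an unadjusted p under 0.05 in limma. Orc1 had the lowest value, at 604, 374 and 537 normalized counts in T/T and 556, 746 and 669 in WT (−0.40 ± 0.21, adjusted p = 0.998). Gins2 was at 897, 591 and 847 against 770, 920 and 1102 (−0.27 ± 0.20). The 2 highest values were those of Pola1, at 1951, 1238 and 1727 against 1759, 1574 and 1158 (0.13 ± 0.21), and Ccne2, at 773, 538 and 623 against 783, 609 and 424 (0.12 ± 0.24). Pcna was at 10768, 7680 and 9455 against 9079, 9923 and 9256 (−0.03 ± 0.13). Mcm2 (−0.14), Ccne1 (−0.11) and E2f1 (−0.15) did not pass. Only 3 of the 42 were positive with a median of −0.12, and T/T replicate 2 was the lowest of the 6 libraries for 37 of the 42 (23.3% of all genes). The mean log2 level was 10.94, 10.42 and 10.77 in T/T and 10.76, 10.86 and 10.85 in WT, a difference of 0.03 without T/T replicate 2. Smooth muscle markers in T/T replicate 2 were at a mean log2 level of 14.13, against 11.19 to 12.27 in the other tumor libraries. Fibroblast (14.07 against 13.45 to 13.70), endothelial (11.67 against 11.09 to 11.37) and myeloid markers (12.0 against 11.1 to 11.6) were highest there too. Fibroblast markers were at mean log2 levels of 13.45 to 14.07 in these tumors, against 1.66 to 7.92 in crypt libraries. Between the tumor genotypes the summed normalized counts of the 7 absorptive colonocyte markers were 20092 to 29958 in T/T and 33088 to 40650 in WT, while their mean log2 levels overlapped, and epithelial markers had mean log2 levels of 14.84 to 14.99 against 15.02 to 15.45. The part of any of these markers in the values of the replication genes was not tested.

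Genotype effects were also compared with each other, between baseline and DSS and between the colonies. In each of 4 such differences 0 of the 42 genes passed at an adjusted p under 0.05. For T/T after DSS minus T/T at baseline, 41 of the 42 differences were positive with a median of 0.36, 4 had an unadjusted p under 0.05 and 0.234% of all genes passed. With the GC trend removed 36 were positive, 1 (Pola1, a difference of 1.53, adjusted p = 0.204) had an unadjusted p under 0.05 and 0.808% of all genes passed. The 4 were Pola1 (a difference of 2.51 in log2 fold change, adjusted p = 0.382), Ccne2 (1.82, adjusted p = 0.338), Rrm2 (0.86, adjusted p = 0.45) and Mcm4 (0.69, adjusted p = 0.45). The other 3 differences had 0 of the 42 at an unadjusted p under 0.05. Their medians were 0.02 for Mtg16-/- after DSS minus baseline, −0.04 for Mtg16-/- minus T/T after DSS and 0.28 for Mtg16-/- minus T/T at baseline, and 0.00738%, 0.0148% and 0 of all genes passed.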

How the data were processed

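Poly(A) RNA-Seq of 42 mouse libraries in 14 groups was deposited as 9 tables. The authors trimmed reads with fastp 0.20.0, quantified GENCODE vM21 transcripts (mm10) with Salmon 1.3.0, summed them to genes and deposited counts divided by the size factors of DESeq2 1.26.0 (R 3.6.3), a signal per gene and library scaled within each table. Per the file headers each table also holds the authors' own log2 fold changes, the standard error and test score of each, and p-values, none of which were used. Strandedness of the counting is not given in the sources used here, so overlapping genes may share reads.

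Values were tested as log2(normalized count + 1) with limma 3.58.1 (trend; R 4.3.3) within each table, over genes with a mean of at least 10, with Benjamini-Hochberg adjustment over all genes tested and a threshold of 0.05. Multiplying each library's values by its size factor, found from their steps, gives back its reads, and in 7 of the tables all values (100%) came out whole within 0.01 reads, which allowed edgeR 4.0.16 and DESeq2 1.42.0 as alternatives and TMM scaling of the WT DSS libraries with baseline in the colony of Mtg16-/- mice over the 17511 genes listed in both tables. The labels do not say that numbered replicates are separate mice, so p-values measure the spread between these libraries. Same-numbered libraries deviated together in all 3 pairs of Mtg16-/- and WT after DSS (r = 0.317 to 0.554), and the fit with pairs is given there. Differences of fold changes were tested with the summed squared standard errors. GC content is that of each gene's longest transcript, by protein-coding transcripts first, and its trend per library was removed by loess with a span of 0.5. The script was tested on simulated data. The members, gene lists and tests were chosen with earlier results of these data known. Per comparison, genes named with values are those that passed the test, or, where fewer than 4 did, the 2 highest and 2 lowest log2 fold changes, with E2f1, Pcna, Mcm2 and Ccne1 throughout and the 2 called genes of the further pathway lists that changed most.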

Additional observations from a re-analysis of the deposited data

Results flagged for a closer look

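In 1 of 70 groups of 4 to 10 libraries examined for a lone value, and chance gives about 1 in 20, a library stood apart by Dixon's criterion. Rrm2 in proximal WT crypts was at 1409 normalized counts in replicate 1 of the T/T colony, below 1567 to 1584 in the other 3 libraries.

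The response to DSS differed between the WT mice of the colonies for 7 of the 42 genes, by the test of the difference itself over all genes, no larger a share than the 20.2% of all genes that differed. Pola1 had log2 fold changes of 0.25 in the colony of Mtg16-/- mice and −3.61 in the T/T colony (a difference of 3.86), Rfc1 −0.09 and −1.70 (1.62), and Prim1 0.19 and −0.97 (1.16). Gins1 had 0.57 and −0.64 (1.21), Rrm1 0.74 and −0.40 (1.14), Rfc4 0.53 and −0.41 (0.95), and Prim2 0.56 and −0.29 (0.85). The DSS libraries of the colonies had different numbers at the start of their library codes, while 2 of the 4 baseline libraries in the colony of Mtg16-/- mice shared theirs with the baseline libraries of the T/T colony, so for the DSS libraries colony and whatever this number marks cannot be told apart. The GC index moved with DSS in the T/T colony, and with its trend removed 2 of the 7 differences passed, Pola1 and Rfc1.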

How the results depend on the processing

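After DSS in the T/T colony, genes called higher (7) and lower (5) became 1 and 2 with the replicate block, whose numbers did not pair these libraries (r = −0.12 to −0.05). Of all genes 4.85% and 14.9% were called there. With the length trend removed 13 were higher, beside 28.2% of all genes. With the GC trend removed 2 were lower, with GC and length removed 2, and with GC removed and the replicate block 3 and 2 (8.42%, 11.1%, 8.40% and 5.80% of all genes). The mean difference (−0.07) became 0.17, 0.25, 0.21 and 0.25 in these fits. Ccne2 reversed to 0.90, 0.84 and 0.90, and Prim1 to 0.11, 0.00943 and 0.11, with GC, GC and length, and GC and block. Pcna reversed to 0.60 with GC and length and to 0.70 with GC and block. Leaving out 1 library gave 0 to 15 higher and 0 to 10 lower (0.00739% to 32.2% and 0 to 34.7% of all genes). In the other colony genes called higher (0) became 3 with the replicate block, 1 in edgeR and 11 in DESeq2 (4.87%, 3.79% and 5.83% of all genes). The count was 0 to 10 leaving out 1 library (1.98% to 3.89% of all genes). By segment, 9 lower became 5 with the library code number as covariate and 4 within code 4149. Genes higher (0) became 1 with GC removed (Rpa3), 1 with GC and length and 2 with GC and block (25.6%, 25.9% and 25.7% of all genes). Leaving out 1 library gave 0 to 1, beside 17.9% to 20.7% of all genes. The 1 was without distal WT replicate 4 of the colony of Mtg16-/- mice. The cause was not tested where the fit itself does not show it. Trends with GC or length were chosen after seeing the data. The other 293 counts and mean differences kept direction and size, as did 184 of 198 that left out 1 library. A count was taken as kept if it changed no more than 1.5-fold. Among those kept, 9 lower by segment became 6 with total scaling or the length trend removed (19.4% of all genes in each). It became 7 with GC and block and 11 with colony as covariate (18.4% and 22.9%). In the T/T colony after DSS, 7 and 5 became 9 and 7 in DESeq2 (19.0% and 25.1%). By segment, 9 lower became 8 with the replicate block alone (21.2% of all genes). The block alone changed no other count of calls among the replication genes. Whether depth limits the calls was not tested.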
